A study of Mus musculus with 9 samples.

Results

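The collagen genes of C2C12 cells were followed through differentiation in control cells and in cells with a knockout of Per1 or Per2, genes of the circadian clock. Members were the protein-coding genes whose symbol is Col, a number, a and a second number. There were 44 such genes, all in the count table, among 47729 genes in all. They were sorted by the structure of their protein into 11 fibrillar genes, 6 type IV genes, 3 basement membrane associated genes (types VII, XV and XVIII), 9 FACIT genes, 7 beaded filament genes (types VI and XXVIII), 3 network genes (types VIII and X), 4 transmembrane genes and 1 other (Col26a1).

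C2C12 is an established line of mouse myoblasts, muscle precursor cells that fuse into myotubes when growth serum is replaced. WT cells received CRISPR-Cas9 with a guide RNA that has no target, Per1KO cells carried a knockout of Per1, and Per2KO cells carried a knockout of Per2. Each population was sampled before differentiation (day 0, in medium with 10% fetal bovine serum) and on days 3 and 5 in medium with 5% horse serum, as 1 library of polyadenylated RNA per population and day, 9 in all. The labels give whole muscle as tissue, but the protocols describe cultured cells. They do not say whether a knockout population is 1 clone, how many cells were pooled, or which alleles the editing left.

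Collagens are secreted proteins built from 3 chains wound into a triple helix. The helix is a repeat of 3 residues that opens with glycine, and prolines and lysines are hydroxylated by dedicated enzymes before the chains fold. Fibrillar collagens (types I, III, V and XI, among others) form the load-bearing fibrils of connective tissue. Type IV chains form the sheet of basement membranes, which wraps every muscle fibre. FACIT collagens sit on the surface of fibrils, and type VI forms beaded filaments next to the muscle basement membrane. In muscle, fibroblasts are the best known source of fibrillar collagen, and cultured myoblasts also make it.

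The difference between the classes is written in their coding sequence. The stretches below are shown because Col4a1 and Col4a2 were higher in the knockouts than in WT while most tested fibrillar genes were lower. Other type IV genes were not called, and genes of other classes were lower too. Capitals mark each codon of the form GGN (glycine). The 4 fibrillar stretches are single exons of 54 bases from the GENCODE M21 annotation of GRCm38, and the type IV stretches are 54 coding bases across the end of the longest unbroken repeat, counted along the spliced coding sequence.
Col1a1 (chr11:94939904-94939957, plus strand): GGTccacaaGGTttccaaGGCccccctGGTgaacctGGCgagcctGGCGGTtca
Col1a2 (chr6:4515481-4515534, plus strand): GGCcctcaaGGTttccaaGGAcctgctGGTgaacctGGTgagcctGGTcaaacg
Col3a1 (chr1:45325360-45325413, plus strand): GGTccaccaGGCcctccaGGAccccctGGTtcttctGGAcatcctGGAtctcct
Col5a1 (chr2:27965251-27965304, plus strand): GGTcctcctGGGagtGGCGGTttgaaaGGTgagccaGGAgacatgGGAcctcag
Col4a1 (chromosome 8, minus strand): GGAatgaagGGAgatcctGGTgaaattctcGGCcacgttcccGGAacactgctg
Col4a2 (chromosome 8, plus strand): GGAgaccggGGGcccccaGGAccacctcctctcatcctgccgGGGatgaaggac
In the 4 fibrillar exons a glycine codon opens each set of 3 codons from end to end, and in Col4a1 and Col4a2 that spacing breaks. The longest unbroken run of glycine triplets had a median of 338 triplets over the 11 fibrillar genes (216 to 344), 43.5 over the 6 type IV genes (39 to 66) and 57 over the 9 FACIT genes (32 to 113). Type IV genes held 16 to 24 separate runs of at least 5 triplets, and fibrillar genes 2 or 3. Coding exons of exactly 54 bases numbered 21 to 33 in fibrillar genes, 1 to 3 in type IV genes and 4 to 28 in FACIT genes.

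Values are CPM (counts scaled to equal library size, with TMM factors for composition), and a fold change is a log2 difference with its standard error (SE). Every adjusted p-value comes from edgeR's quasi-likelihood test, corrected over all 13324 genes tested, and a gene is called at an adjusted p-value under 0.05. The 3 populations stand in for replicates of a day and the 3 days for replicates of a population, so p-values speak of these cell populations. Total counts were 5020385 to 6773320 in WT and 41997763 to 48051824 in the knockouts. Only the WT titles carry a lane suffix, so depth and lane cannot be told apart from genotype. The floor, set at 3 counts, was 0.424 to 0.660 CPM in WT and 0.0591 to 0.0731 CPM in the knockouts. For a count of 0 the 95% counting interval reached 0.521 to 0.811 CPM in WT and 0.0726 to 0.08985 CPM in the knockouts. Both cover counting error only. Per1 was at 35.6, 33.8 and 31.0 CPM on days 0, 3 and 5 in WT and 20.9, 32.4 and 28.9 CPM in Per1KO. Per2 was at 9.74, 11.5 and 20.4 CPM in WT and 3.50, 9.13 and 8.38 CPM in Per2KO. Per2 in Per1KO was at 6.59, 9.44 and 10.6 CPM, and Per1 in Per2KO at 16.5, 30.4 and 32.9 CPM. Per1 was not called in Per1KO (-0.34 ± 0.22, adjusted p = 0.310) and Per2 was lower in Per2KO (-1.02 ± 0.24, adjusted p = 0.0230). An edit that shifts the reading frame need not lower a gene's count, so these values do not check the labels. The muscle markers Myog (a myogenic regulator) and Ckm (muscle creatine kinase) rose on day 5 (log2 4.99 ± 0.78, adjusted p = 0.00178, and 7.98 ± 1.21, adjusted p = 0.00152). The adipocyte markers Adipoq and Lep, the fibroblast markers Thy1 and Tcf21, the bone marker Ibsp and the macrophage marker Adgre1 were at 0 in all 9 libraries. Other markers of these cell types were above 0, and the 6 fibroblast markers summed to 161 to 1309.7 CPM. All the marker lists are read further below.

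Of the 44 collagen genes, 26 reached 1 CPM in at least 3 libraries and were tested: 10 fibrillar, 4 type IV, 3 basement membrane associated, 3 FACIT, 3 beaded filament, 1 network and 2 transmembrane genes. A gene that passed only through the libraries where it is high could hardly fail to differ, so the counts describe these 26 and not all 44. Col15a1 is such a gene, since it reached 1 CPM in the 3 WT libraries alone. Col11a1 and Col11a2 reached 1 CPM only in libraries of days 3 and 5, and both are counted among the rises by day below. The plot of all 44 genes by library shows which were present. A mean over the 9 libraries of 10 CPM or more was reached by 16 genes, called abundant below. Among the other 18, Col6a6 had no count in any library, and Col2a1, Col9a1 and Col9a2, which are cartilage collagens, did not exceed 0.0244 CPM. Per transcript length, Col3a1 ranked first in every library, with 35.4% to 49.3% of the summed collagen CPM per kb, and Col1a2 ranked second in every library.

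**Figure D1:**
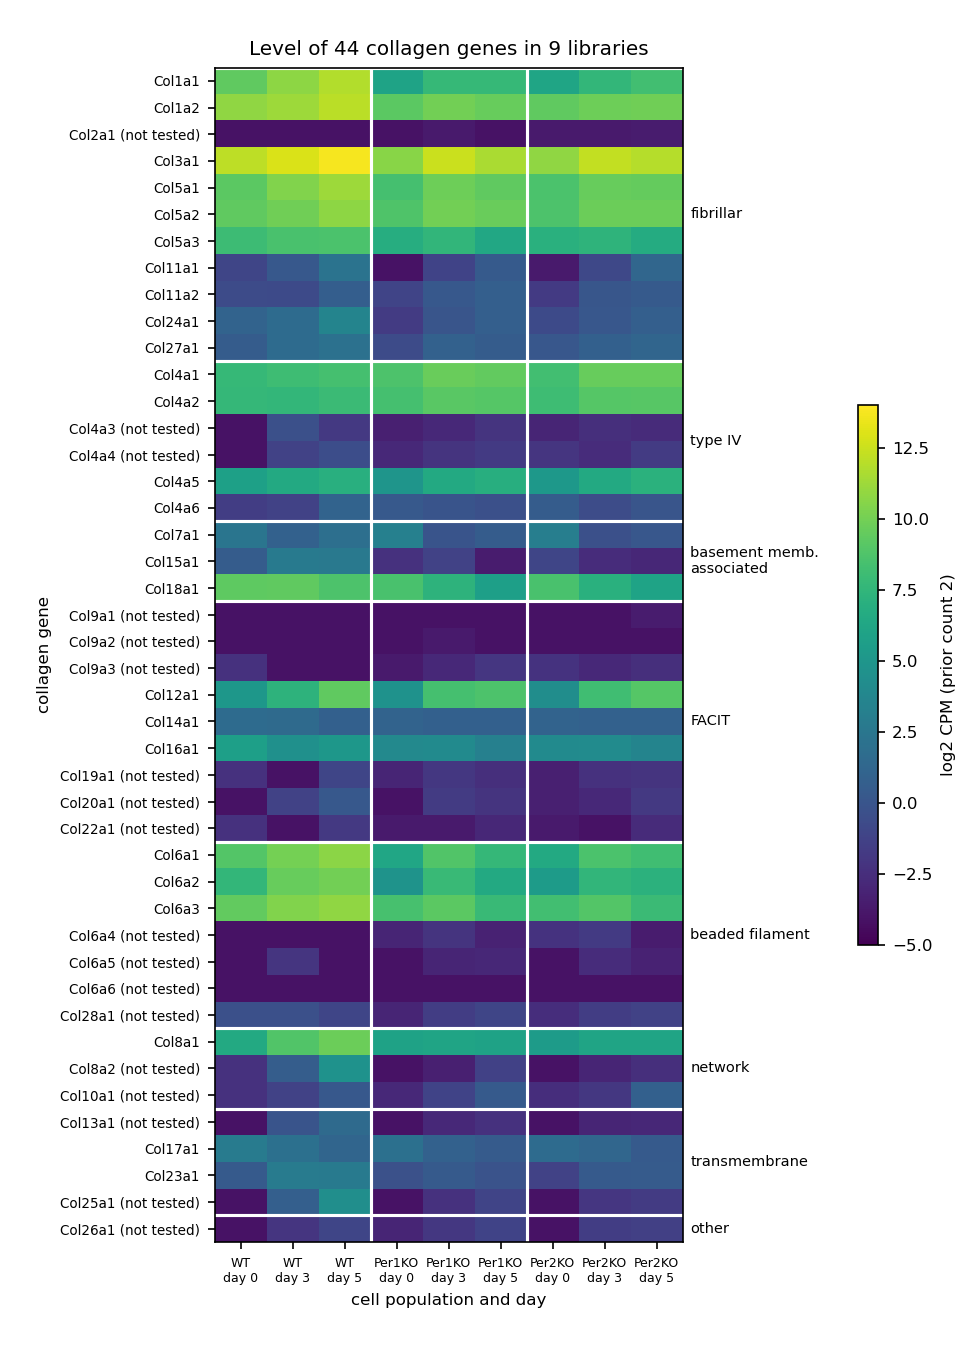
Level of each of the 44 collagen genes (rows, by class) in the 9 libraries (columns), as log2 CPM with a prior count of 2. On each day Col1a1, Col1a2, Col3a1 and Col5a1 are brighter in WT than in the knockouts, Col4a1 and Col4a2 are brighter in the knockouts, and the genes marked as not tested are dark in most libraries.

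Collagen genes as a whole made up 1.16% of the counts in WT on day 0, 1.88% on day 3 and 3.06% on day 5. In Per1KO they made up 0.523%, 1.23% and 0.770%, and in Per2KO 0.542%, 1.08% and 0.925%. The largest width of an exact Clopper-Pearson 95% interval was that of WT on day 5, from 3.04% to 3.07%. WT therefore held the highest share on each day, and its share was higher on day 5 than on day 3, while the share in both knockouts was lower on day 5 than on day 3.

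Most of the tested fibrillar genes were higher on days 3 and 5 than on day 0. The serum changed after day 0, so differentiation, serum and time in culture cannot be told apart. On day 3 against day 0, 14 of the 26 tested collagen genes rose and 2 fell, when 18.1% of all genes tested rose and 16.9% fell. On day 5 against day 0, 16 rose and 3 fell, when 23.2% of all genes rose and 22.9% fell. The median log2 change of the 26 was 0.91 on day 3 and 1.16 on day 5, beside -0.01 for all genes on both days. Called in either direction were 35.0% of all genes on day 3 and 46.1% on day 5. Day 5 against day 3 gave 0 calls by edgeR among the 26, when 1.79% of all genes were called, 0.698% higher and 1.09% lower. In the same test 7 of the 26 had an unadjusted p under 0.05, beside 1975 of all 13324 genes. DESeq2's Wald test called 2 for that comparison, and its share of all genes is not given here.

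By class, 9 of the 10 tested fibrillar genes rose by day 5, 3 of 4 type IV genes rose, 2 of 3 beaded filament genes rose, 1 of 3 FACIT genes rose, and 2 of 3 basement membrane associated genes fell. The counts called without Per1KO were 6 on day 3 and 12 on day 5, and without Per2KO 6 and 10. The low-count filter was applied anew to the libraries left, so the genes tested in these fits can differ from the 26. The share of all genes called in these fits is not given here, so their counts are not read as particular to collagen genes. Col1a1, Col4a5, Col5a1, Col5a2, Col6a1, Col6a2, Col12a1, Col17a1 and Col24a1 passed the day 5 threshold under each omission of a population. Libraries of day 0 and day 5 did not overlap for 6 genes that were higher (23.9% of all genes) and 3 lower (22.6%), and those of day 0 and day 3 for 6 higher (19.8%) and 1 lower (18.8%). Between days 3 and 5 the counts were 4 higher (9.17%) and 0 lower (10.4%). The largest class medians on day 5 were those of the beaded filament (1.64) and fibrillar (1.27) genes.

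The type I chains are the main fibril builders of skin, bone and tendon. Col1a1 (ENSMUSG00000001506, chr11:94936224-94953042, plus strand) stood at 645, 1731 and 3667 CPM on days 0, 3 and 5 in WT. It stood at 64.0, 218 and 213 CPM in Per1KO and at 73.7, 193 and 305 CPM in Per2KO. All 3 WT values lay above all 6 knockout values, and each population was higher on days 3 and 5 than on day 0. The rise was 1.54 ± 0.21 (SE, log2) on day 3 (adjusted p = 0.00130) and 2.12 ± 0.21 on day 5 (adjusted p = 1.70e-04).
Col1a2 (ENSMUSG00000029661, chr6:4504814-4541544, plus strand), the partner chain of the type I heterotrimer, stood at 1842, 2441 and 4285 CPM in WT. It stood at 594, 989 and 751 CPM in Per1KO and at 669, 882 and 960.3 CPM in Per2KO. Its WT values also lay above all knockout values. Its change of 0.72 ± 0.22 on day 5 was called (adjusted p = 0.0314), but not without Per1KO (adjusted p = 0.0762) or without Per2KO (adjusted p = 0.130).

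Col3a1 (ENSMUSG00000026043, chr1:45311538-45349706, plus strand), the chain of the type III homotrimer of elastic tissues, stood at 4459, 7832 and 13903 CPM in WT. It stood at 1614, 5643 and 3071 CPM in Per1KO and at 1817, 4944 and 3721 CPM in Per2KO. The WT library was highest on each day, and the groups overlap, since the knockouts on day 3 exceeded WT on day 0. Its exons overlap those of Gm47302 on the same strand, whose reads could not be separated here. It rose by day 3 (1.40 ± 0.29, adjusted p = 0.00888) and day 5 (1.24 ± 0.29, adjusted p = 0.00995). The day 3 call was lost without Per1KO (adjusted p = 0.0967) and without Per2KO (adjusted p = 0.0908), and the day 5 call without Per2KO (adjusted p = 0.0644).

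Type V chains nucleate fibrils and set their diameter. Col5a1 stood at 588, 1354 and 2418 CPM in WT, 339, 879.9 and 656 CPM in Per1KO and 397, 763 and 712 CPM in Per2KO. Col5a2 stood at 654, 966 and 1739 CPM in WT, 445, 995 and 802 CPM in Per1KO and 419, 843 and 838 CPM in Per2KO. In all 3 populations both genes were higher on days 3 and 5 than on day 0, and the day 0 libraries did not overlap with those of day 3 or of day 5. They rose by day 5 by 1.30 ± 0.26 (adjusted p = 0.00501) and 1.11 ± 0.21 (adjusted p = 0.00376), and their day 3 calls were lost without Per1KO (adjusted p = 0.102 and 0.134) and without Per2KO (adjusted p = 0.0578 and 0.123).
Col5a3, the other type V chain, stood apart. It was at 260.0, 366 and 400.2 CPM in WT, 114.5, 184 and 84.0 CPM in Per1KO and 134, 160.3 and 103 CPM in Per2KO. Its level on day 5 was above day 0 in WT and below it in both knockouts, and its day 5 change was -0.04 ± 0.24 (adjusted p = 0.894).

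The minor fibrillar genes were near the floor in most libraries. Col11a1, which copolymerises with type II in cartilage, stood at 0.424, 1.09 and 4.62 CPM in WT, 0, 0.373 and 1.23 CPM in Per1KO and 0.0197, 0.497 and 2.34 CPM in Per2KO. Each day was higher than the one before in every population, and the change on day 5 was 5.51 ± 0.64 (adjusted p = 3.62e-04), the largest fitted rise of any tested collagen. Set against the floor for its count of 0 on day 0, Per1KO was 20.1-fold higher on day 5. That fold leaves out the counting error of the day 5 value and is not a lower bound. Col11a2 stood at 0.565, 0.547 and 1.54 CPM in WT, 0.406, 1.14 and 1.61 CPM in Per1KO and 0.236, 0.994 and 1.24 CPM in Per2KO, with 2.05 ± 0.35 on day 5 (adjusted p = 0.00242). That call was lost without Per2KO (adjusted p = 0.0566), and Col11a2 did not pass the low-count filter without Per1KO. Both Col11a1 and Col11a2 entered the test through libraries of days 3 and 5 alone, so their rises are read as a description only.
Col24a1 stood at 1.98, 3.10 and 11.7 CPM in WT, 0.243, 0.973 and 1.61 CPM in Per1KO and 0.551, 1.06 and 1.66 CPM in Per2KO. Col27a1 stood at 1.41, 3.10 and 4.18 CPM in WT, 0.588, 1.84 and 1.39 CPM in Per1KO and 1.08, 1.74 and 2.24 CPM in Per2KO. Both rose on day 5, by 2.23 ± 0.35 (adjusted p = 0.00159) and 1.22 ± 0.28 (adjusted p = 0.00877). The Col27a1 call was lost without Per1KO (adjusted p = 0.0887) and without Per2KO (adjusted p = 0.0665). Col2a1 had at most 1 count in a library.

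Of the 4 tested type IV genes, Col4a1 and Col4a2 were higher in both knockouts, and Col4a5 and Col4a6 were not called. Col4a1 (ENSMUSG00000031502, chr8:11198423-11312826, minus strand) stood at 208, 269.5 and 331 CPM in WT. It stood at 407, 812 and 694 CPM in Per1KO and at 308, 751 and 784 CPM in Per2KO. Within each day the WT library was lowest, and only the Per2KO library of day 0 fell inside the WT range. Col4a2 (ENSMUSG00000031503, chr8:11312805-11449287, plus strand) stood at 201, 188 and 252 CPM in WT, 333, 555 and 498 CPM in Per1KO and 269.9, 506 and 546 CPM in Per2KO. All 6 knockout values lay above all 3 WT values. The genes encode the chains of the most widespread type IV heterotrimer, and they lie head to head with starts 21 bp apart and first exons that overlap on opposite strands. Whether counting used the strand is not given in the sources used here, so reads in that overlap cannot be told apart.
Col4a1 rose by 0.92 ± 0.19 on day 5 (adjusted p = 0.00544) and Col4a2 by 0.63 ± 0.20 (adjusted p = 0.0332). Without Per1KO the adjusted p-values were 0.0507 and 0.165, and without Per2KO 0.0754 and 0.261.

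Col4a5, a chain of the kidney and smooth muscle networks, stood at 55.5, 91.2 and 129 CPM in WT, 29.9, 93.5 and 122 CPM in Per1KO and 34.9, 95.4 and 142 CPM in Per2KO. The days did not overlap, and on days 3 and 5 the 3 populations lay close together. It rose by 1.27 ± 0.19 on day 3 (adjusted p = 0.00215) and 1.75 ± 0.19 on day 5 (adjusted p = 2.87e-04). Its head-to-head neighbour Col4a6, whose start lies 1309 bp away, stood at 0.2825, 0.365 and 1.98 CPM in WT, 1.16, 0.890 and 0.721 CPM in Per1KO and 1.36, 0.621 and 0.9255 CPM in Per2KO and was not called on either day. Col4a3 and Col4a4, chains of the glomerular and alveolar basement membrane, did not exceed 0.730 CPM and were not tested.

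**Figure D2:**
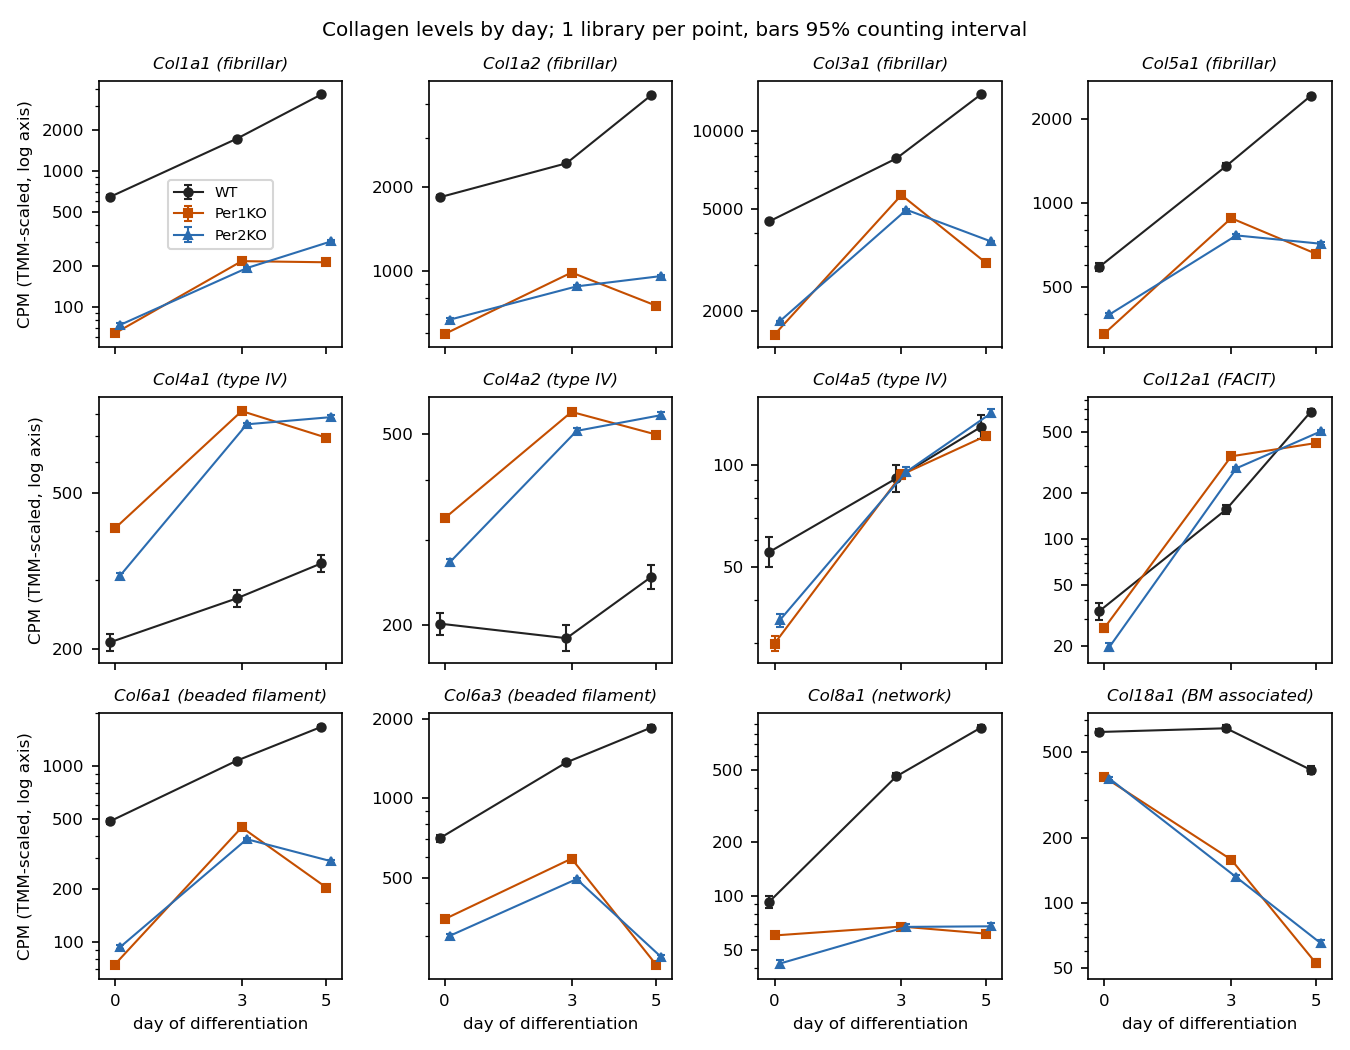
CPM on a log axis against day of differentiation for 12 collagen genes, with 1 library per point, lines joining the days of a population, and bars giving the 95% counting interval. WT lies above both knockouts on every day for Col1a1, Col1a2, Col6a1, Col6a3, Col8a1 and Col18a1, below them for Col4a1 and Col4a2, and the 3 populations meet for Col4a5 on days 3 and 5.

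Among the basement membrane associated genes, Col18a1, whose C-terminal fragment is endostatin, stood at 618, 643 and 413 CPM in WT. It stood at 382, 159 and 52.8 CPM in Per1KO and at 376.5, 132 and 65.1 CPM in Per2KO. Every WT value lay above every knockout value. It fell by day 5 (-2.04 ± 0.41, adjusted p = 0.00541), but the call was lost without Per1KO (adjusted p = 0.0865) and without Per2KO (adjusted p = 0.0732).
Col7a1, which forms the anchoring fibrils below skin epithelium, stood at 5.08, 1.82 and 3.74 CPM in WT, 9.63, 0.890 and 1.37 CPM in Per1KO and 8.50, 0.704 and 1.05 CPM in Per2KO. It fell on day 3 (-3.10 ± 0.47, adjusted p = 0.00221) and day 5 (-2.37 ± 0.46, adjusted p = 0.00411). Without Per1KO the adjusted p-values were 0.0595 and 0.0963, and without Per2KO the day 5 value was 0.0706. Col15a1, found where muscle and vessel basement membranes meet the surrounding matrix, was at 1.41 to 6.57 CPM in WT and at 0.0240 to 0.433 CPM in the knockouts and was not called between days.

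FACIT genes split. Col12a1 (ENSMUSG00000032332, chr9:79598991-79718831, minus strand), which binds type I fibrils in tendon and in the sheath of muscle, stood at 33.8, 155 and 674 CPM in WT. It stood at 26.2, 345 and 421 CPM in Per1KO and at 19.7, 288 and 502 CPM in Per2KO. The days did not overlap over the 3 populations. The rise was 3.34 ± 0.37 on day 3 (adjusted p = 6.54e-04) and 4.35 ± 0.38 on day 5 (adjusted p = 1.18e-04). Day 5 exceeded day 0 by 20-fold in WT, 16.1-fold in Per1KO and 25.5-fold in Per2KO.
Col16a1 stood at 52.3, 23.5 and 33.4 CPM in WT, 15.5, 17.0 and 9.39 CPM in Per1KO and 16.7, 18.2 and 11.8 CPM in Per2KO, and its day 5 change of -0.63 ± 0.26 was not called (adjusted p = 0.0849). Col14a1, a fibril-surface collagen of tendon and skin, was at 1.71 to 3.11 CPM throughout and was not called. Col9a1, Col9a2, Col9a3, Col19a1, Col20a1 and Col22a1 were not tested, and the highest value among them was 1.10 CPM (Col20a1 in WT on day 5).

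The main type VI chains assemble as a trimer of 3 different gene products. Col6a1 stood at 485, 1073 and 1669.8 CPM in WT, 74.7, 449 and 204 CPM in Per1KO and 93.5, 384.5 and 288 CPM in Per2KO. Col6a2 stood at 191, 753 and 1011 CPM in WT, 27.5, 231 and 91.0 CPM in Per1KO and 42.1, 186 and 145 CPM in Per2KO. Both were lowest on day 0 in every population, and both knockouts peaked on day 3. They rose on day 5 by 1.64 ± 0.30 (adjusted p = 0.00348) and 2.004 ± 0.30 (adjusted p = 0.00140).
Col6a3 stood at 706, 1370.3 and 1856 CPM in WT, 349, 591 and 234 CPM in Per1KO and 301, 495 and 250.4 CPM in Per2KO. By day 5 it was above its day 0 level in WT and below it in both knockouts, and the fitted change of 0.24 ± 0.38 was not called (adjusted p = 0.628). Col6a4, Col6a5, Col6a6 and Col28a1 did not exceed 0.730 CPM.

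Col8a1, a short-chain collagen of vessel walls and of the membrane under the corneal endothelium, stood at 93.2, 463 and 864 CPM in WT. It stood at 60.4, 67.7 and 61.8 CPM in Per1KO and at 42.1, 67.4 and 67.9 CPM in Per2KO. WT increased 9.27-fold from day 0 to day 5, and the knockouts 1.02-fold and 1.61-fold. Its average day 5 change of 1.21 ± 0.53 was not called (adjusted p = 0.100).
Its partner Col8a2 was not tested, and held 1 count in WT on day 0 and 118 counts (25.95 CPM) on day 5, with at most 0.336 CPM in any knockout library. Col25a1, a transmembrane collagen that motor axons need to enter muscle, likewise went from 0 counts to 97 counts (21.3 CPM) in WT, or 50.3-fold against the floor. It reached 0.408 CPM in Per1KO and 0.244 CPM in Per2KO on day 5. Col13a1, a transmembrane collagen of the neuromuscular junction, went from 0 to 13 counts in WT (6.75-fold against the floor). Both folds leave out the counting error of the day 5 value, so they are not lower bounds. These values rest on 1 WT library of each day and are given without a test.

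The remaining tested transmembrane genes were low. Col17a1, a component of hemidesmosomes, stood at 7.49, 4.01 and 2.20 CPM in WT, 4.08, 1.82 and 1.32 CPM in Per1KO and 3.11, 2.36 and 1.22 CPM in Per2KO, and fell on day 5 (-1.56 ± 0.23, adjusted p = 0.00107). Col23a1 stood at 1.27, 7.30 and 6.60 CPM in WT, 0.771, 1.22 and 0.841 CPM in Per1KO and 0.354, 1.24 and 1.315 CPM in Per2KO, and rose on day 5 (1.31 ± 0.42, adjusted p = 0.0364). That call was lost without WT (adjusted p = 0.0958) and without Per2KO (adjusted p = 0.250). Col10a1, the collagen of hypertrophic cartilage, reached 1.10 CPM in WT, 1.23 CPM in Per1KO and 1.73 CPM in Per2KO on day 5, and Col26a1 stayed at or below 0.440 CPM.

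Both knockouts held less fibrillar and type VI collagen mRNA than WT and more of the 2 main type IV chains. In Per1KO 17 of the 26 tested collagen genes were lower and 2 higher, when 10.1% of all genes were lower and 9.26% higher. In Per2KO 15 were lower and 2 higher, when 10.6% of all genes were lower and 9.31% higher. Both comparisons use the same 3 WT libraries, so they are not independent of each other. Called in either direction were 19.3% of all genes in Per1KO and 19.9% in Per2KO. By class, 8 of 10 fibrillar genes, 3 of 3 beaded filament genes, 2 of 3 basement membrane associated genes, 1 of 3 FACIT genes and 2 of 2 transmembrane genes were lower in Per1KO, and the counts in Per2KO were 6, 3, 2, 1 and 2. The higher genes, 2 in each knockout, were both type IV. The median log2 difference of the 26 was -1.40 in Per1KO and -1.27 in Per2KO, beside -0.02 and -0.01 for all genes. The knockouts did not differ from each other in any call by edgeR, with 0% of all genes called, and DESeq2's Wald test called 0. By edgeR 0 of the 26 had an unadjusted p under 0.05, beside 88 of all 13324 genes.
Without any overlap between libraries, 11 of the 26 lay lower in Per1KO than in WT, beside 10.6% of all genes, and 11 in Per2KO, beside 10.4%. Higher without overlap were 2 in Per1KO, beside 11.9% of all genes, and 1 in Per2KO (Col4a2), beside 1593 of the 13324 genes, and none differed without overlap between the knockouts (0.901% of all genes higher and 0.991% lower in Per1KO). Against both knockouts together, 10 of the 26 lay lower in both knockouts than in WT, beside 8.11% of all genes, and 1 (Col4a2) lay higher, beside 9.83%. The counts of called genes in Per1KO were 15 without day 0, 8 without day 3 and 6 without day 5, and in Per2KO 14, 7 and 6. A fit on only the 6 libraries compared called 11 for Per1KO and 12 for Per2KO. For these fits with fewer libraries the share of all genes called is not given here, so a change in count may not be particular to collagen genes.

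**Figure D3:**
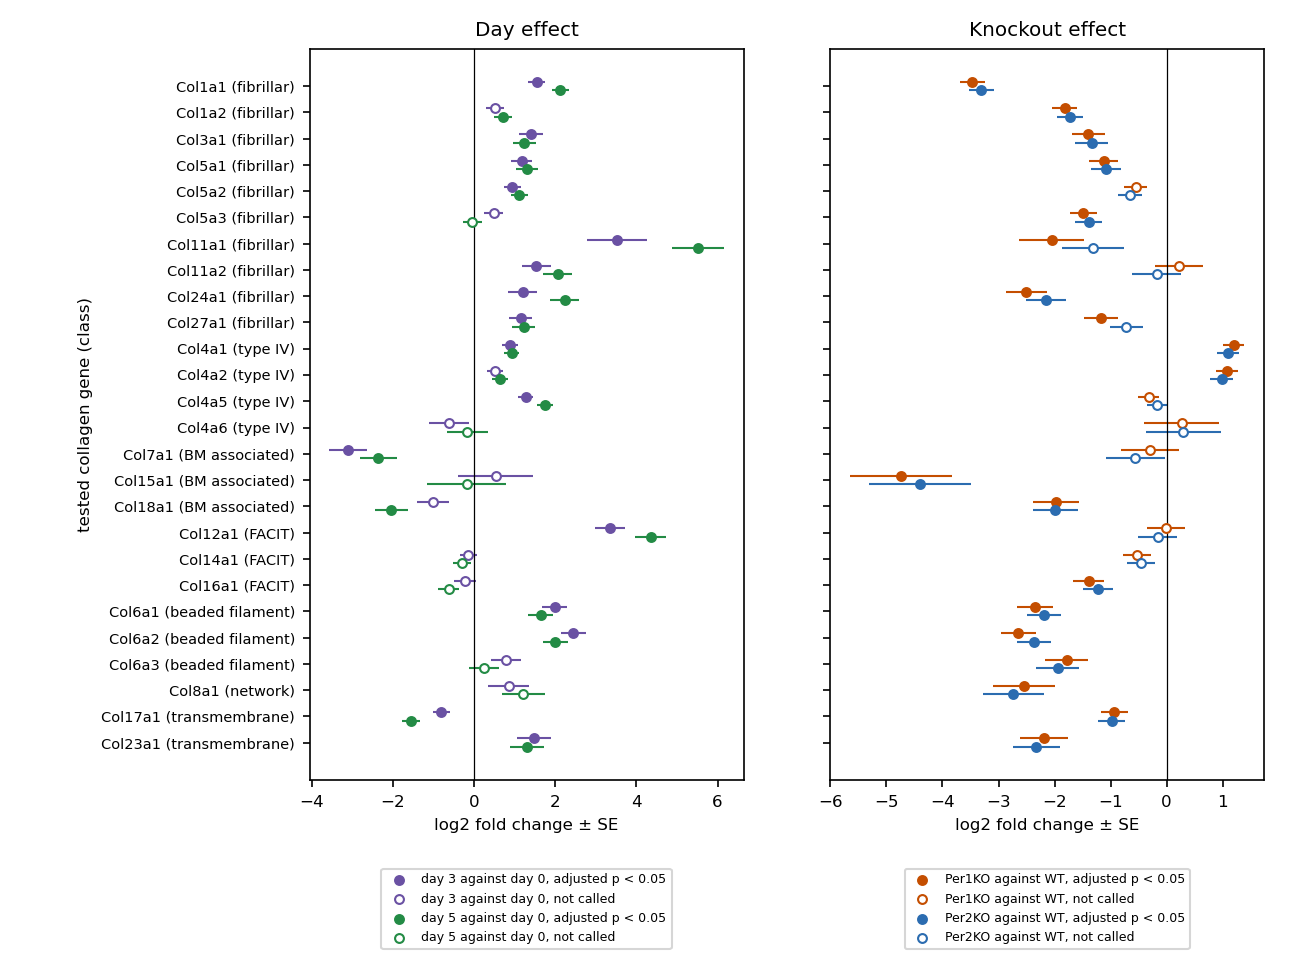
Log2 fold change with its SE for the 26 tested collagen genes, for the days on the left and the knockouts on the right. Filled points have an adjusted p under 0.05 and open points do not. Most fibrillar genes lie right of 0 by day and left of 0 by knockout, and Col4a1 and Col4a2 lie right of 0 in both panels.

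Col1a1 had the largest drop among the abundant collagens, -3.47 ± 0.22 in Per1KO (adjusted p = 5.88e-05) and -3.31 ± 0.22 in Per2KO (adjusted p = 7.44e-05), with all 3 days in the same direction. The WT level was 10.1, 7.95 and 17.2 times the Per1KO level on days 0, 3 and 5. The difference for Col1a2 was -1.82 ± 0.23 in Per1KO (adjusted p = 0.00150) and -1.72 ± 0.23 in Per2KO (adjusted p = 0.00187). Both type I calls held without any one day.
Col3a1 was lower in Per1KO (-1.40 ± 0.30, adjusted p = 0.0152) and in Per2KO (-1.34 ± 0.29, adjusted p = 0.0168). These calls were lost without day 0 (adjusted p = 0.0769 and 0.0700) and without day 5 (adjusted p = 0.112 and 0.0984).

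Of the type V genes, Col5a3 was lower (-1.49 ± 0.24, adjusted p = 0.00519, and -1.39 ± 0.24, adjusted p = 0.00653, in Per1KO and Per2KO). Without day 3 its Per2KO call was lost (adjusted p = 0.0629). Col5a1 was lower too (-1.12 ± 0.26, adjusted p = 0.0221, and -1.08 ± 0.26, adjusted p = 0.0246). Its calls were lost without day 3 (adjusted p = 0.0867 and 0.119) and without day 5 (adjusted p = 0.102 and 0.0997). Col5a2 missed the threshold (-0.56 ± 0.21, adjusted p = 0.101, and -0.65 ± 0.21, adjusted p = 0.0630).
Col24a1 was lower in both knockouts (-2.50 ± 0.36, adjusted p = 0.00263, and -2.15 ± 0.36, adjusted p = 0.00509), with both calls lost without day 5 (adjusted p = 0.0638 and 0.112). Col11a1 (-2.05 ± 0.58, adjusted p = 0.0427) and Col27a1 (-1.18 ± 0.30, adjusted p = 0.0316) were called in Per1KO and not in Per2KO (-1.32 ± 0.55, adjusted p = 0.132, and -0.72 ± 0.30, adjusted p = 0.130). The difference between the knockouts was not called for either (-0.74 ± 0.47 and -0.46 ± 0.25, adjusted p = 1 for both). Both of these Per1KO calls were lost without day 3 (adjusted p = 0.151 and 0.0749). The Col27a1 call was also lost without day 0 (adjusted p = 0.0739) and without day 5 (adjusted p = 0.274). Col11a2 was not called in either.

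The 3 tested type VI genes were lower in both knockouts. The differences in Per1KO were -2.35 ± 0.32 for Col6a1 (adjusted p = 0.00211), -2.65 ± 0.31 for Col6a2 (adjusted p = 0.00122) and -1.79 ± 0.38 for Col6a3 (adjusted p = 0.0175). In Per2KO they were -2.19 ± 0.31 (adjusted p = 0.00261), -2.37 ± 0.31 (adjusted p = 0.00179) and -1.94 ± 0.38 (adjusted p = 0.0121). The Col6a3 calls were lost without day 3 (adjusted p = 0.0953 and 0.0921). Col8a1 was lower by -2.54 ± 0.55 (adjusted p = 0.0180) and -2.74 ± 0.54 (adjusted p = 0.0123), with calls lost without day 3 (adjusted p = 0.159 and 0.140) and without day 5 (adjusted p = 0.132 and 0.0839).

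Col4a1 was higher in Per1KO by 1.20 ± 0.19 (adjusted p = 0.00430) and in Per2KO by 1.09 ± 0.19 (adjusted p = 0.00632). Col4a2 was higher by 1.07 ± 0.20 (adjusted p = 0.00875) and 0.98 ± 0.20 (adjusted p = 0.0126). All 3 days showed this direction for both genes in both knockouts. Without day 3 the 4 adjusted p-values were 0.0676, 0.0901, 0.0889 and 0.113, and without day 5 they were 0.0542, 0.0910, 0.0948 and 0.142, in the order just given. Col4a5 was not called in Per1KO (-0.32 ± 0.19, adjusted p = 0.266) or Per2KO (-0.17 ± 0.19, adjusted p = 0.565).

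The basement membrane associated Col18a1 was lower by -1.97 ± 0.41 (adjusted p = 0.0147) and -1.99 ± 0.41 (adjusted p = 0.0136), with calls lost without day 3 (adjusted p = 0.133 and 0.154) and without day 5 (adjusted p = 0.120 and 0.0936). Col15a1, which entered the test through its WT libraries alone, had at most 36 counts in any library and is one of the lower genes in both counts. Its difference is read as a description only, and its Per2KO call was lost on only the 6 libraries compared (adjusted p = 0.0588). Among FACIT genes Col16a1 was lower (-1.39 ± 0.27, adjusted p = 0.0108, and -1.22 ± 0.27, adjusted p = 0.0173). Its calls were lost without day 0 (adjusted p = 0.0653 and 0.0910) and without day 5 (adjusted p = 0.144 and 0.160). Col12a1 was not called, at -0.01 ± 0.34 (adjusted p = 0.986) and -0.16 ± 0.34 (adjusted p = 0.778).
The low transmembrane genes Col17a1 (-0.93 ± 0.24, adjusted p = 0.0300, and -0.98 ± 0.24, adjusted p = 0.0248) and Col23a1 (-2.19 ± 0.43, adjusted p = 0.0108, and -2.32 ± 0.42, adjusted p = 0.00774) were lower. The Col17a1 calls were lost without any one day (adjusted p = 0.0733 to 0.154) and with libraries thinned to equal depth (adjusted p = 0.157 and 0.193). The Col23a1 calls were lost without day 3 (adjusted p = 0.144 and 0.123) and without day 5 (adjusted p = 0.129 and 0.0649).

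The make-up of the collagen mRNA pool differed between the populations. Fibrillar genes held 72.9% to 77.5% of the summed CPM per kb in WT and 65.7% to 73.9% in the knockouts. Type IV held 3.66%, 2.43% and 1.87% in WT on days 0, 3 and 5, 14.4%, 10.8% and 15.4% in Per1KO and 11.0%, 11.5% and 14.4% in Per2KO. The 3 WT shares lay below all 6 knockout shares. Beaded filament genes held 12.6% to 17.5% in WT and 7.59% to 11.4% in the knockouts. FACIT genes, almost all Col12a1 by day 5, held 1.12% in WT and 2.97% in each knockout on day 5.
The ratio of Col1a1 to Col1a2 per kb, whose protein chains join 2 to 1 in type I collagen, was 0.316, 0.639 and 0.772 in WT, 0.0971, 0.198 and 0.256 in Per1KO and 0.0993, 0.198 and 0.286 in Per2KO. It was higher on each later day in every population, and lower in the knockouts on every day. The ratio of Col4a1 to Col4a2 lay between 1.01 and 1.45 in all 9 libraries. Col6a3 to Col6a1 was 0.663, 0.582 and 0.506 in WT, and went from 2.13 to 0.522 in Per1KO and from 1.47 to 0.396 in Per2KO between days 0 and 5. These shares and ratios are single-library values without a test.

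**Figure D4:**
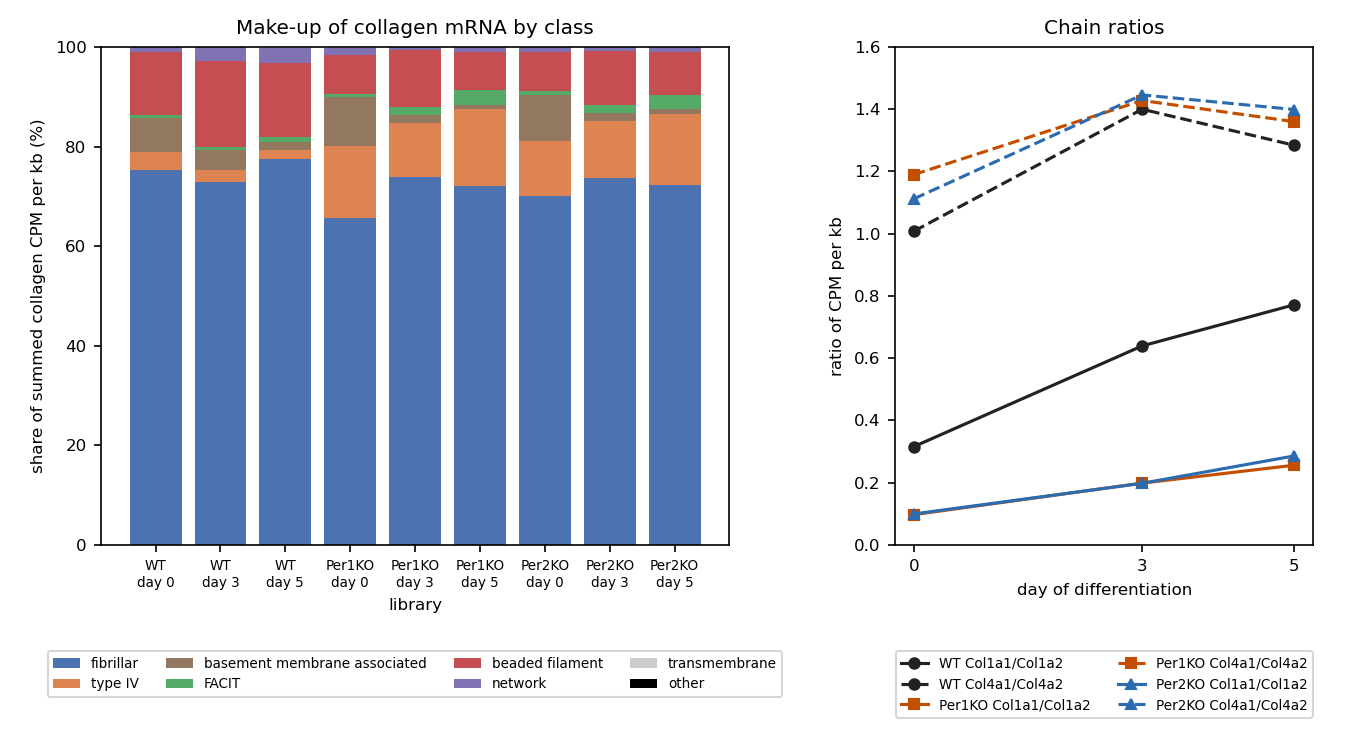
Left, the share of each class in the summed collagen CPM per kb (%) of each library. Right, the ratios of Col1a1 to Col1a2 (solid) and Col4a1 to Col4a2 (dashed) per kb by day, where the type I ratio reaches 0.772 in WT and 0.286 at most in the knockouts while the type IV ratio stays between 1.01 and 1.45.

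Whether the response to differentiation differed between the knockouts and WT was tested as the change from day 0 to the later days in the knockouts minus that in WT. It was called for 4 of the 26 tested collagen genes, 1 higher and 3 lower in the knockouts, when 4.95% of all genes were called (3.50% higher and 1.45% lower). Col8a1 (-2.41 ± 0.42, adjusted p = 0.0274) was higher on each later day in WT and within 1.61-fold of its day 0 level in the knockouts. Col18a1 (-1.78 ± 0.32, adjusted p = 0.0291) and Col7a1 (-2.28 ± 0.37, adjusted p = 0.0223) had a lower ratio of later days to day 0 in the knockouts than in WT, where Col18a1 was at 618 CPM on day 0 and 643 CPM on day 3. Col4a5 (0.82 ± 0.16, adjusted p = 0.0383) started lower in the knockouts on day 0 and reached the WT level by day 3.
Omitting a population changed these calls: without Per2KO the adjusted p-values were 0.302 for Col4a5, 0.109 for Col7a1 and 0.0538 for Col18a1, and without Per1KO 0.271 for Col4a5 and 0.0764 for Col7a1. Without day 3 they were 0.0795 for Col4a5 and 0.0518 for Col7a1. The count was 10 without day 5 and 1 without Per2KO, with the share of all genes called in those fits not given here.

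From day 3 to day 5 the levels of several collagen genes lay in opposite directions in WT and the knockouts, and edgeR called none of these differences. In WT 15 of the 16 abundant collagen genes were higher on day 5, with Col18a1 the exception, beside 48.7% of all genes at 10 CPM or more. Of those 16, 8 were higher in WT and lower in both knockouts, beside 16.6% of all genes at that level: Col3a1, Col5a1, Col5a2, Col5a3, Col6a1, Col6a2, Col6a3 and Col16a1. Only Col4a5 and Col12a1 were higher in all 3 populations. Col3a1 went from 7832 to 13903 CPM in WT, from 5643 to 3071 CPM in Per1KO and from 4944 to 3721 CPM in Per2KO.
A test of this difference, added after the values were seen and with 2 residual degrees of freedom, had 0 calls by edgeR among the 26 and 0% among all genes. In it 24 of the 26 lay below 0, 13 had an unadjusted p under 0.05, and the median was -0.98 beside 0.02 for all genes. The shares of all genes for the counts of 24 and 13 are not given here. Both counts restate the courses that prompted the test, so nothing further is read from them. The lowest adjusted p was 0.0709 (Col6a3, -1.59 ± 0.19), followed by Col3a1 (-1.48 ± 0.23, adjusted p = 0.0832). DESeq2's Wald test called 10 of 26, beside 2.61% of all genes. Without a filter on low counts edgeR called 8 of 43 (2.22% of all genes), and on libraries thinned to equal depth 9 of 25 (3.45%). All of these calls were lower in the knockouts. In the knockouts alone, day 5 against day 3, 1 collagen gene was higher (Col4a5, 0.48 ± 0.08, adjusted p = 0.0231) and 6 were lower, when 10.5% of all genes were called. The 6 were Col6a3 (-1.16 ± 0.11, adjusted p = 0.00402), Col18a1, Col5a3, Col16a1, Col3a1 and Col6a1 (adjusted p = 0.00538 to 0.0372).

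Genes that modify, fold, export and cross-link collagen chains were read from a list of 35, of which 33 were tested. On day 5 against day 0, 13 rose and 2 fell, beside 23.2% and 22.9% of all genes. In each knockout 15 were lower and 1 higher than WT, beside 10.1% of all genes lower and 9.26% higher in Per1KO and 10.6% and 9.31% in Per2KO. Tll1, one of the 33, reached 1 CPM in the 3 WT libraries alone, so its difference is read as a description only. The median log2 difference over the 33 was -0.44 in Per1KO and -0.46 in Per2KO, beside -0.02 and -0.01 for all genes. Day 5 against day 3 had 0 calls in the list by edgeR, when 1.79% of all genes were called. In the same test 5 of the 33 had an unadjusted p under 0.05, close to the share of all genes (1975 of 13324).
Adamts2, the protease that removes the N-terminal propeptide of fibrillar procollagens, stood at 47.5, 248 and 706 CPM in WT, 2.21, 50.5 and 40.1 CPM in Per1KO and 6.06, 51.5 and 54.7 CPM in Per2KO. It rose on day 5 (3.71 ± 0.42, adjusted p = 3.77e-04) and was lower in Per1KO (-3.59 ± 0.42, adjusted p = 0.00125) and Per2KO (-3.04 ± 0.41, adjusted p = 0.00224). Its WT level was the highest on each day.

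Serpinh1, the chaperone of the collagen helix, stood at 1128, 1808 and 1580.3 CPM in WT, 806, 1030.0 and 764 CPM in Per1KO and 803, 940.0 and 812 CPM in Per2KO. It was lower in both knockouts (-0.79 ± 0.15, adjusted p = 0.00939, and -0.80 ± 0.15, adjusted p = 0.00845) and was not called by day 5 (0.14 ± 0.15, adjusted p = 0.472). P4ha1, a catalytic subunit of prolyl 4-hydroxylase, was lower by -0.68 ± 0.18 (adjusted p = 0.0319) and -0.78 ± 0.18 (adjusted p = 0.0191), and P4ha3 by -3.03 ± 0.43 (adjusted p = 0.00256) and -3.66 ± 0.43 (adjusted p = 0.00121). P4hb, the shared subunit that also folds other secreted proteins, was not called (-0.22 ± 0.13 and -0.36 ± 0.13, adjusted p = 0.287 and 0.103).
The lysyl hydroxylases Plod1 (-1.14 ± 0.16, adjusted p = 0.00213, in Per1KO) and Plod2 (-0.99 ± 0.22, adjusted p = 0.0190) were lower, with like values in Per2KO (-1.15 ± 0.16, adjusted p = 0.00207, and -0.89 ± 0.22, adjusted p = 0.0266). The cross-linking oxidase Lox was lower by -0.63 ± 0.17 (adjusted p = 0.0398) and -0.62 ± 0.17 (adjusted p = 0.0402), and the C-terminal proteinase Bmp1 was not called in the knockouts (adjusted p = 0.148 and 0.126). P3h2, a prolyl 3-hydroxylase known for acting on type IV chains, was the member that was higher, at 0.706, 2.01 and 1.54 CPM in WT, 1.32, 3.62 and 5.79 CPM in Per1KO and 1.53, 2.88 and 5.43 CPM in Per2KO. The differences were 1.22 ± 0.31 (adjusted p = 0.0316) and 1.14 ± 0.32 (adjusted p = 0.0394).

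**Figure D5:**
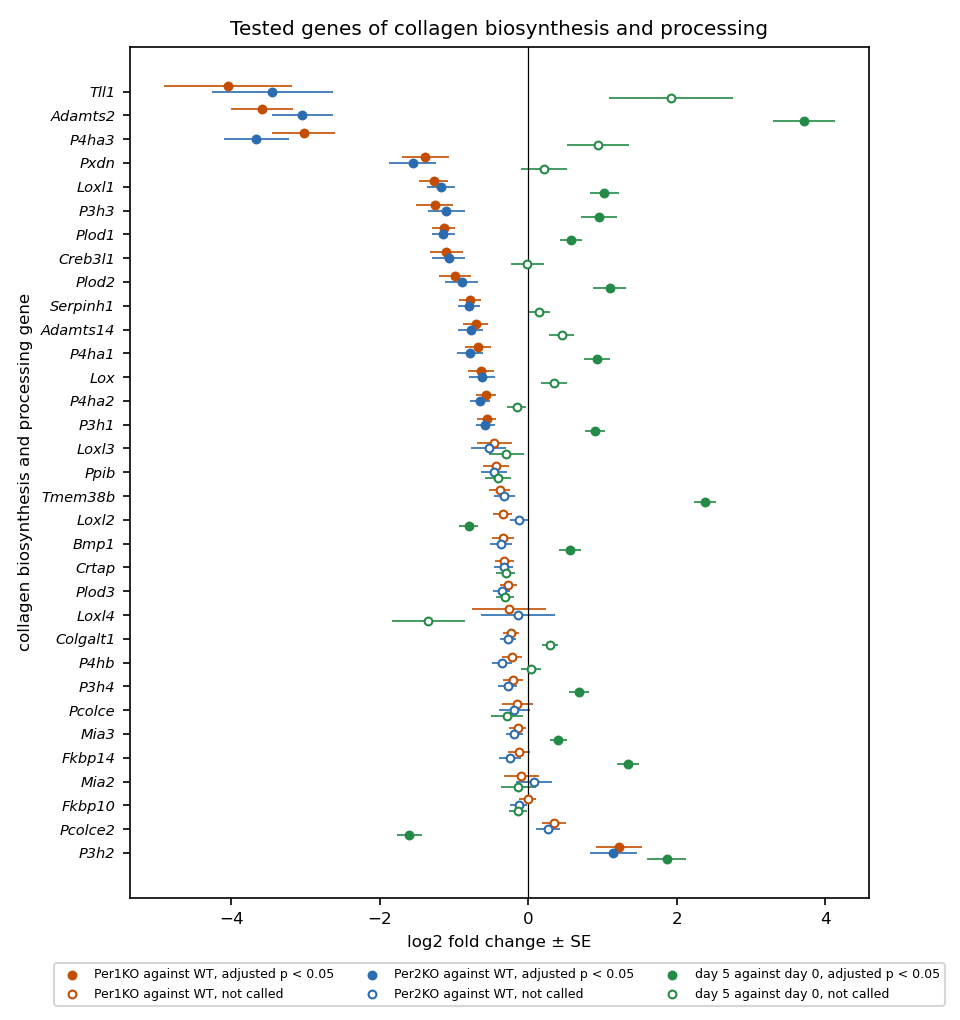
Log2 fold change with its SE for the 33 tested genes of collagen biosynthesis and processing, ordered by the Per1KO difference, with filled points at an adjusted p under 0.05. Adamts2, Tll1 and P4ha3 lie furthest left in the knockouts, where Tll1 entered the test through its WT libraries alone. P3h2 is the filled point to the right of 0 for both knockouts.

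Collagen receptors were read from a list of 10, of which 6 were tested. On day 5 against day 0, 4 of the 6 rose, beside 23.2% of all genes. In each knockout 1 of the 6 (16.7%) was lower, close to the 10.1% and 10.6% of all genes. Itga11, the integrin subunit that binds type I collagen, stood at 0, 2.01 and 21.1 CPM in WT, 0.0406, 0.373 and 1.51 CPM in Per1KO and 0.0197, 0.290 and 2.095 CPM in Per2KO. It rose from day 3 to day 5 (2.74 ± 0.38, adjusted p = 0.0127) and was lower in Per1KO (-3.17 ± 0.46, adjusted p = 0.00286) and Per2KO (-3.09 ± 0.45, adjusted p = 0.00268). Itga11, one of the 6 tested receptors, reached 1 CPM only in libraries of days 3 and 5, so its rise is read as a description only. Itga10 (4.73 ± 0.31, adjusted p = 0.00178) and the endocytic collagen receptor Mrc2 (1.79 ± 0.24, adjusted p = 0.0126) differed in their response to differentiation, with the higher ratio of later days to day 0 in the knockouts. The discoidin receptors Ddr1 and Ddr2 were not called in either knockout.

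Markers of muscle and of other cell types were read in the same libraries. Myog stood at 124, 868 and 1060.4 CPM in WT, 5.35, 262 and 351 CPM in Per1KO and 2.91, 226 and 271 CPM in Per2KO, and was lower in both knockouts (-2.80 ± 0.72, adjusted p = 0.0325, and -3.18 ± 0.73, adjusted p = 0.0217). It was the only one of 8 muscle markers called in either knockout (12.5%), near the 10.1% and 10.6% of all genes called lower. The median log2 difference of the 8 was -1.48 in Per1KO and -1.80 in Per2KO. By edgeR 5 and 6 of the 8 had an unadjusted p under 0.05, beside 4661 and 4681 of all 13324 genes. In the test of a differing day response 5 of the 8 were called higher, beside 3.50% of all genes. That is a higher ratio of later days to day 0 in the knockouts and not a higher level. The summed level of the 8 muscle markers on days 0, 3 and 5 was 3164, 16342 and 14919 CPM in WT. It was 1776, 7373 and 12517 CPM in Per1KO and 1451.5, 6841 and 10482 CPM in Per2KO, so WT was highest on each day. Of the 6 fibroblast markers, Thy1 and Tcf21 were at 0 in all libraries, and the sum was 453, 973 and 845 CPM in WT, 170, 1128 and 1172 CPM in Per1KO and 161, 1195.5 and 1309.7 CPM in Per2KO. It was below WT in both knockouts on day 0 and above WT on days 3 and 5, and 2 of the 3 tested fibroblast markers were called higher in the test of a differing day response. Dcn, which myoblasts also express, made most of that sum on days 3 and 5, and Pdgfra was lower in both knockouts (-1.24 ± 0.18, adjusted p = 0.00313, and -1.27 ± 0.18, adjusted p = 0.00277). Summed levels in WT and the knockouts were 9.67 to 30.9 and 12.9 to 29.2 CPM for 6 adipocyte markers, 79.8 to 152.5 and 50.5 to 87.7 CPM for 6 chondrocyte markers, 44.6 to 70.8 and 30.7 to 61.2 CPM for 6 osteoblast markers, and 80.8 to 172.8 and 67.0 to 125 CPM for 3 tendon markers. The 5 endothelial and 4 macrophage markers summed to at most 3.64 and 2.86 CPM. The part of these markers in the collagen differences was not tested, and fewer cells of a type cannot be told apart from less RNA per cell.

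Promoter windows from RefSeq (GRCm38.p6, 250 bases before to 50 after the start) were matched for 35 members, in 38 windows. Col1a1 was among the members without a window, so the motif shares do not cover it. The window of Col3a1 is shown up to its start because that gene was the most abundant member per length in every library. Capitals mark TATAAA.
Col3a1 (chr1:45311288-45311537, plus strand): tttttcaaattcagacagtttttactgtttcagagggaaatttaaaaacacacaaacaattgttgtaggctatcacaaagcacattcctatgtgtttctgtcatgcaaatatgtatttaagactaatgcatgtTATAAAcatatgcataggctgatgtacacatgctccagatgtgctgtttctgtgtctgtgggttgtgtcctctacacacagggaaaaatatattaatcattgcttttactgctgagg
Each motif was searched on both strands. CACGTG, the E-box bound by the clock activators CLOCK and BMAL1, which PER proteins inhibit, was in 0% of the collagen windows and 7.15% of all 32851 windows. The wider CANNTG, which includes CACGTG, was in 52.6% of collagen windows and 72.3% of all. CCAAT was in 34.2% and 37.4%, TATAAA in 13.2% and 13.6%, and GGGCGG in 60.5% and 35.7%. The windows of Col4a1 and Col4a2, which overlap each other, each held CCAAT and GGGCGG. A missing match says only that these letters are not in this window.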

How the data were processed

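RNA was measured by polyadenylated RNA sequencing in 9 libraries of C2C12 cells, 1 for each of 3 populations (WT, Per1KO, Per2KO) on days 0, 3 and 5. The authors deposited raw read counts per gene for all 9 libraries in one table, and per the submitters' processing notes CASAVA 1.8, HISAT2 2.1.0 and the genome build mm10 were used. The counting program, annotation and strand setting are not given in the sources used here. The table had 47729 genes, and 47310 matched the GENCODE M21 annotation of GRCm38, which gave gene types, positions and transcript lengths.

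From these counts, genes with 1 CPM or more in 3 or more libraries (13324) were scaled by TMM and tested with edgeR 4.0.16 (quasi-likelihood, robust, limma 3.58.1, R 4.3.3), genotype and day as additive terms, 4 residual degrees of freedom, and Benjamini-Hochberg adjustment over all genes tested. The test of a differing day response had 3 residual degrees of freedom. With 1 library per population and day, the additive terms take the spread left over as error, and p-values speak of these populations only. Log2 CPM used a prior count of 2, the floor is 3 counts, and share intervals are exact Clopper-Pearson at 95%. PCR duplicates make both cover counting error only. The same test recovered 199 of 199 genes simulated with a 4-fold change for day 5 against day 0, and 200 of 200 for Per1KO against WT. The simulation gave every gene the same spread and no differing day response between populations. It therefore checks that the test runs and does not measure its power in these data.

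Values are given for every fibrillar, type IV and FACIT gene and for other members with a mean of 10 CPM or more, with full statistics for abundant members and for the largest change per class and comparison. From the biosynthesis and receptor lists the largest called changes were named, with P4ha1, P4hb, Plod1, Plod2, Serpinh1, Bmp1 and Lox. Per1 and Per2 were given as the targeted genes, and Myog and Ckm as markers of differentiation. Low members such as Col8a2, Col13a1 and Col25a1, and Mrc2, Ddr1, Ddr2, Dcn and Pdgfra, were named after their values were seen. The members and lists were chosen with earlier results of these data known. Alternatives were other scalings, other filters, DESeq2 1.42.0, thinning to equal depth, fewer libraries, and leaving out each population or day.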

Additional observations from a re-analysis of the deposited data

Results flagged for a closer look

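The change from day 0 to the later days differed between the knockouts and WT for 4 collagen genes, by edgeR's test of that difference. It was higher in the knockouts for the type IV chain Col4a5 (0.82 on the log2 scale, adjusted p = 0.0383). It was lower for Col7a1 (-2.28, adjusted p = 0.0223), the network collagen Col8a1 (-2.41, adjusted p = 0.0274) and the endostatin precursor Col18a1 (-1.78, adjusted p = 0.0291). Col7a1 rests on low levels, at 0.704 to 9.63 CPM in the 9 libraries, and Col8a1 was the only one of the 4 that kept its call under each omission of a population or a day.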

How the results depend on the processing

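No called collagen gene reversed direction under any alternative run. All 75 calls were kept with DESeq2's size factors, with upper-quartile scaling and by DESeq2's Wald test, 73 with protein-coding genes only, 68 with no low-count filter and 64 with libraries thinned to the lowest total. The unfiltered fit moved the median of all genes by 0.12 in Per1KO and 0.11 in Per2KO. On day 3 against day 0 (16 calls), a minimum of 1 CPM in all 9 libraries left 10 calls and thinning left 10. Day 5 against day 3 (0 calls) had 1 call with protein-coding genes only, 3 with no low-count filter and 2 by DESeq2's Wald test. Per1KO against WT (19 calls) had 11 on only the 6 libraries compared. The differing change from day 3 to day 5 (0 calls), a test chosen after seeing the data, had 8 with no low-count filter (2.22% of all genes called), 10 by DESeq2's Wald test (2.61%) and 9 with thinned libraries (3.45%).

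Leaving out each population in turn gave 6 to 19 calls on day 3 against day 0, 10 to 20 on day 5 against day 0 and 0 to 7 on day 5 against day 3. Leaving out each day in turn gave 6 to 15 for Per1KO and 6 to 14 for Per2KO. The differing day response (4 calls) had 1 to 10 over omitted populations and days. Without WT, 58.0% of all genes were called on day 3 against day 0, 64.6% on day 5 against day 0 and 10.5% on day 5 against day 3. Other counts in this section that have no share of all genes beside them are not read as particular to collagen genes. Omissions also leave fewer samples, and the cause of each lost call was not tested. Genotype and day were both terms of the fit, so knockouts were compared with WT within days and days within populations. The labels give no replicate number, so no further block was fitted. WT had the shallowest libraries, so its floor is the highest and limits what could be seen of low members there.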
